A study of Homo sapiens with 2 samples.

Results

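DTL, the subunits that carry it in a ubiquitin ligase (DDB1, CUL4A and CUL4B) and KMT5A, a substrate of that ligase, were compared between an ANO5 siRNA culture and a control siRNA culture of NUGC4 cells. These 5 genes were chosen by name, with earlier results of the same 2 arrays known, and the value of DTL on them is among the reasons for the choice. All 5 are among the 14526 genes that could be named in the deposited table, and each is read by 1 transcript cluster, a group of probes that the array assigns to a transcript. NUGC4 is an established human gastric cancer cell line, and anoctamin 5, the product of ANO5, belongs to a family of membrane proteins in which some members are chloride channels gated by calcium and others move lipids across the membrane. The ANO5 siRNA culture received 1 Stealth siRNA duplex against ANO5 and the control culture the maker's negative control, each at a final 20 nmol/l with the same lipid reagent, 24 h after the cells were seeded, per the labels' protocols. Each group is 1 culture of 1 cell line on 1 array, and no second duplex was part of these samples. There is thus no spread between replicates, and every difference below is a description of 2 RNA samples with no test. The sources used here do not give the interval between transfection and RNA extraction.

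DTL, also known as CDT2, is a substrate receptor. It binds the adaptor DDB1, which hangs on the scaffold CUL4A or CUL4B, and the scaffold's RING partner RBX1 brings in the ubiquitin-conjugating enzyme. The ligase with DTL acts in S phase and after DNA damage on proteins that are bound to PCNA, the sliding clamp, on chromatin. Its best known substrates are the licensing factor CDT1, the CDK inhibitor CDKN1A and KMT5A, the enzyme that places the first methyl group on lysine 20 of histone H4. Their removal keeps DNA from being licensed again and keeps the H4 mark low during S phase. Many other receptors share DDB1 and the CUL4 scaffolds, so the core serves far more than DTL.

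The start regions of 3 of the 5 genes are shown because the genes lay at different ends of the comparison below: DTL and KMT5A were lower in the ANO5 siRNA culture and DDB1 was near its control value. All 5 genes matched the RefSeq promoter table (GRCh38.p14), with 12 windows in all, each from 250 bases before to 50 after a start. DTL and DDB1 have 1 window each, KMT5A 2, and CUL4A and CUL4B 4 each. The DTL window lies at chr1:212035498-212035797 on the plus strand, the first KMT5A window at chr12:123383882-123384181 on the plus strand and the DDB1 window at chr11:61333056-61333355 on the minus strand. Each is written from 5′ to 3′ on the gene's strand, and capitals mark the letters of the E2F motif TTTNGCGC and of the NF-Y motif CCAAT, on either strand.
DTL: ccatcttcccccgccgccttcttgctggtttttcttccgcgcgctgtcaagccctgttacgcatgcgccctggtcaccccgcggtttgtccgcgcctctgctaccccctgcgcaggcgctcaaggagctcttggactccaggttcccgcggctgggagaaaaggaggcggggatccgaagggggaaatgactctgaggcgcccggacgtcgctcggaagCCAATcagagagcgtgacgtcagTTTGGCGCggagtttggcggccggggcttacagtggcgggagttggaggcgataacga
KMT5A: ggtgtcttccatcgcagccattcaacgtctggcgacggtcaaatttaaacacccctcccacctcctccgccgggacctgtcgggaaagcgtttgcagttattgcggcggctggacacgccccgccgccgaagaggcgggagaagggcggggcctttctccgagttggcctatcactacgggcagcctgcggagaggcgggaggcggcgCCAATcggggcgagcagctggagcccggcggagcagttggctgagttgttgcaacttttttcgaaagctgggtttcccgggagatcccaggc
DDB1: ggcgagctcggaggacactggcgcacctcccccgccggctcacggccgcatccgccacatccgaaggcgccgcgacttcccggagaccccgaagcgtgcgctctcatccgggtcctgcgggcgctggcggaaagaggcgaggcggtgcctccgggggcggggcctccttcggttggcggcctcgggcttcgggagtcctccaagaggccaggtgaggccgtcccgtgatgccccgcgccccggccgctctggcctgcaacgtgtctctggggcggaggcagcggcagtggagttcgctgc
E2F factors are the transcription factors of genes needed for S phase, and NF-Y binds CCAAT boxes. The letters TTTGGCGC begin 8 bases before the DTL start, and a CCAAT begins 31 bases before it. TTTNGCGC was in 0 of the other 11 windows of these genes and in 1.79% of all 35116 windows of the table. CCAAT was also in the first KMT5A window, 42 bases before the start, and in 2 of the 4 CUL4B windows, and 34.6% of all windows hold it. The CHR letters TTTGAA, known from genes of mitosis, were in 1 CUL4B window and in 15.2% of all windows. The GC box GGGCGG was in both KMT5A windows, the DDB1 window, 1 CUL4A window and 3 CUL4B windows, and in 45% of all windows. The DTL window held neither. Counted by gene, over the 8134 genes of the measured range (defined below) that have a window, the shares differ. TTTNGCGC was found for 3.84% of these genes, CCAAT for 44%, TTTGAA for 13.8% and GGGCGG for 77.2%. None of the 4 motifs overlapped another in the windows printed. These matches describe letters only, and no binding was measured.

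Over both arrays the deposited values covered 17345 clusters and ran from 2.13 to 18.15, read as log2 signal. Genes with a mean over both arrays of at least 6.05, the 33rd percentile, were taken as the measured range, which held 9735 genes. Their median difference, ANO5 siRNA minus control siRNA, was 0.07 with quartiles of -0.43 and 0.54. ANO5 itself read 3.67 in the ANO5 siRNA culture and 6.83 in the control culture, and its mean lay below the measured range. Of the 5 epithelial markers EPCAM, CDH1, KRT8, KRT18 and KRT19, all read between 15.21 and 17.37 in the ANO5 siRNA culture and between 14.6 and 17.06 in the control culture. Of the 4 gastric or intestinal markers in the table, CEACAM5 read 16.71 in the ANO5 siRNA culture and 15.32 in the control culture, and CDX2 9.34 and 9.74 in the same order. TFF1 (4.98 and 4.22) and TFF3 (4.81 and 5.12) lay below the measured range. The 8 markers of fibroblasts, blood and endothelium in the table read 7.92 or less in the ANO5 siRNA culture and 8.03 or less in the control culture. Of these, COL1A2 (7.92 and 8.03), VWF (7.66 and 7.14) and HBA1 (6.3 and 6.14) lay in the measured range. The others lay below it, and PTPRC, the pan-leukocyte marker, read 3.49 and 3.68.

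DTL was far lower in the ANO5 siRNA culture, KMT5A was lower by less, and the 3 subunits of the core stayed within 2-fold of the control. DTL read 7.47 in the ANO5 siRNA culture and 12.26 in the control culture, a log2 difference of -4.79 or 27.7-fold lower. The linear signal left was 3.61% of the control's. Only 1 other measured gene had a lower difference, that of CDK2. The ANO5 siRNA value of DTL was not at the bottom of its array: 48.2% of all clusters read lower there, and 88.8% of clusters read lower than DTL on the control array. COL1A2 and VWF, markers of fibroblasts and endothelium, read 7.92 and 7.66 on the ANO5 siRNA array. The other markers of fibroblasts, blood and endothelium read lower than DTL there. Whether the 7.47 of DTL lies above background was not tested, so the size of the fold is uncertain. RNA came from whole cultures, so fewer cells in the phase that makes DTL and less DTL RNA per cell cannot be told apart.

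The core genes differed by less than 2-fold and in both directions. DDB1, the adaptor, read 13.07 in the ANO5 siRNA culture and 13.26 in the control culture, a difference of -0.19 on the log2 scale. CUL4A read 11.72 in the ANO5 siRNA culture and 10.95 in the control culture, 1.71-fold higher. CUL4B, its close relative on the X chromosome, read 12.09 in the ANO5 siRNA culture and 11.76 in the control culture, 1.26-fold higher. Both scaffold genes thus read higher in the ANO5 siRNA culture while their adaptor read slightly lower. Among measured genes 35.1% had a difference as low as that of DDB1 or lower, 35.4% one as high as that of CUL4B or higher, and 17.1% one as high as that of CUL4A or higher. DDB1 and CUL4B thus lay between the quartiles of all measured genes, and CUL4A lay above the upper one.

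KMT5A read 10.13 in the ANO5 siRNA culture and 11.52 in the control culture, a log2 difference of -1.39 or 2.62-fold lower. Its difference was the same in direction as that of DTL and far smaller. A difference as low or lower was found for 674 measured genes, 6.92% of them. RefSeq lists 3 pseudogenes of KMT5A and 1 of CUL4A, and the sources used here do not say whether the probes also read them, so these 2 genes are less certain than DTL, DDB1 and CUL4B.

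**Figure D1:**
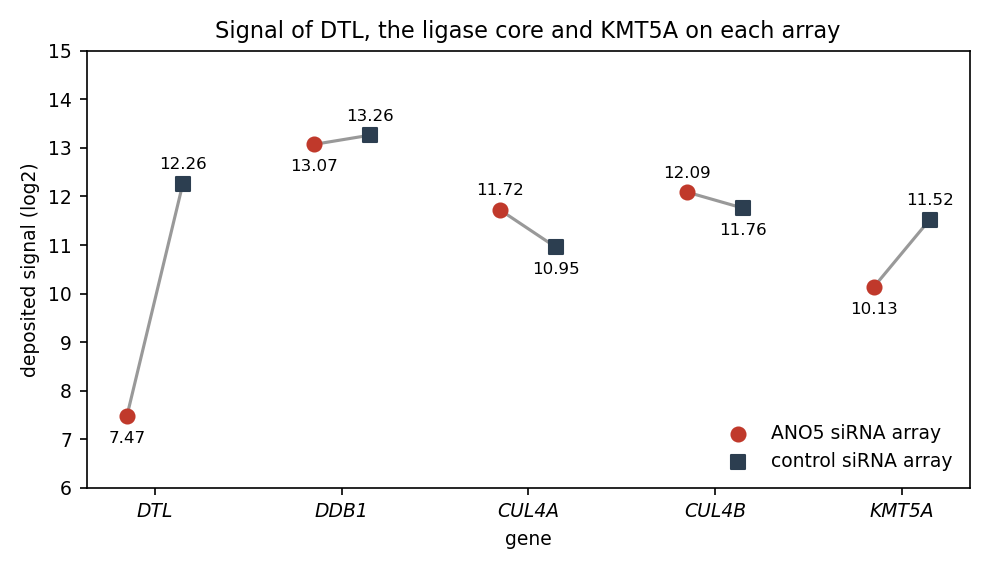
Deposited signal (log2, vertical axis) of the 5 genes (horizontal axis) on the ANO5 siRNA array (circles) and the control siRNA array (squares), 1 array each and no error bars. The line of DTL spans 7.47 to 12.26 and that of KMT5A 10.13 to 11.52, while DDB1, CUL4A and CUL4B each differ by 0.77 or less between the arrays, and levels of different genes are not comparable because their probes differ.

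Of the 5 genes, 2 were lower by 2-fold or more and 0 higher. Over all measured genes 11.3% were lower by 2-fold or more and 11.2% higher. Because this contrast was known when the genes were chosen, nothing is read from the count. The median of DDB1, CUL4A and CUL4B was 0.33, and DTL lay 5.12 below it on the log2 scale, a 34.8-fold gap between receptor and core. DTL lay 3.40 below KMT5A, its substrate, a 10.6-fold gap, and KMT5A lay 1.72 below the core median. The span within the core, from DDB1 to CUL4A, was 0.96. The plot of every measured gene shows DTL at the lower edge and the core between the lines at 2-fold.

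**Figure D2:**
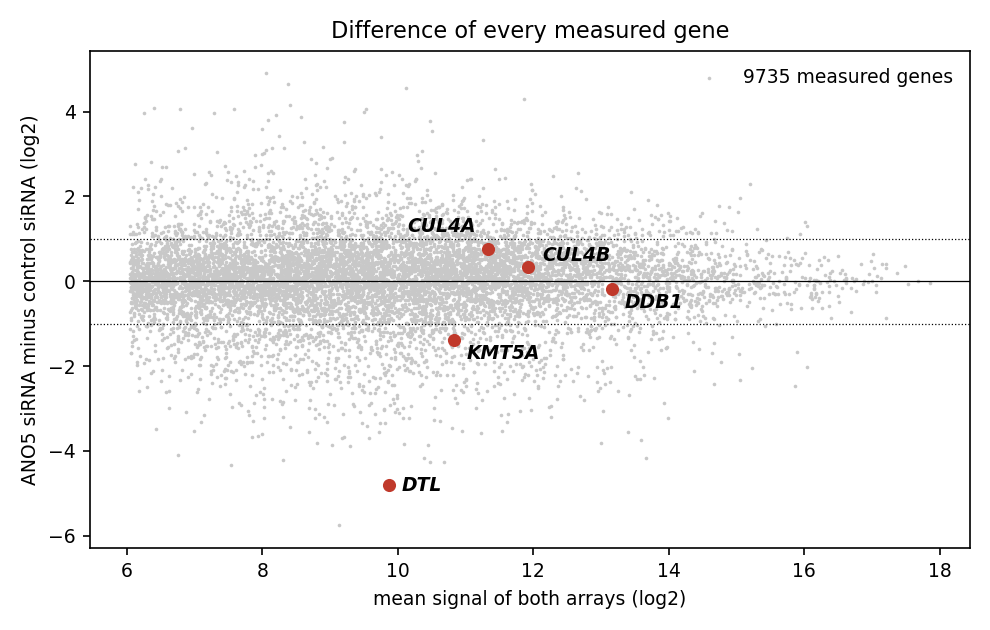
Difference ANO5 siRNA minus control siRNA (log2, vertical axis) against the mean signal of both arrays (log2, horizontal axis) for the 9735 measured genes (grey), with the 5 genes in red and dotted lines at 2-fold. DTL lies at -4.79, below all measured genes but 1, KMT5A lies just past the lower dotted line at -1.39, and DDB1, CUL4A and CUL4B lie between the dotted lines.

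With 2 arrays the pattern of a gene is its pair of values, and likeness was measured as the distance between pairs on the log2 scale. The 5 measured genes nearest to DTL were NEMP1, GINS1, SCAMP2, H3C2 and LMNB1, at distances of 0.74 to 0.95. NEMP1, a protein of the inner nuclear membrane, read 8.17 in the ANO5 siRNA culture and 12.01 in the control culture. GINS1, part of the replicative helicase, read 8.31 in the ANO5 siRNA culture and 12.47 in the control culture. None of the 5 had a difference as low as that of DTL, their range being -4.26 for LMNB1 to -3.55 for H3C2. KMT5A had closer company: SLC39A10, ZNF267, PPP6C, CFAP68 and HEATR1 lay within 0.1 of it, with differences between -1.37 and -1.27. This measure also depends on the brightness of each gene's probes.

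RBX1 and DDA1, the other parts of the ligase listed with the core, also stayed within 2-fold of the control. RBX1, the RING subunit, read 10.84 in the ANO5 siRNA culture and 10.68 in the control culture, a difference of 0.16. DDA1, a small protein bound to DDB1, read 12.33 in the ANO5 siRNA culture and 11.76 in the control culture, a difference of 0.57. Of the 5 genes of the core and these partners, 0 passed 2-fold in either direction, beside 11.3% lower and 11.2% higher of all measured genes. With so few genes nothing is read from this count. Their median was 0.33, beside 0.07 over all measured genes.

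DTL stood at the low end of the receptors that share the core. Of 27 receptor genes in the list, 26 were in the measured range, and DET1 was below it. By 2-fold, 3 of the 26 were lower (11.5%) and 2 higher (7.69%), shares close to the 11.3% and 11.2% of all measured genes. The median was 0.20 with DTL and also 0.20 over the other 25. WDR76, a WD40 protein of the same class, was next after DTL and read 6.25 in the ANO5 siRNA culture and 9.31 in the control culture, 8.34-fold lower. DCAF16 read 8.56 in the ANO5 siRNA culture and 10.56 in the control culture, 4-fold lower. DTL thus lay 1.73 below the lowest of the other receptors and 4.99 below their median. The 6.25 of WDR76 is near the 6.05 that bounds the measured range. Neither it nor the ANO5 siRNA value of DTL was tested against background, so the folds and the gap of 1.73 are uncertain.

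In the other direction, WDTC1 read 8.90 in the ANO5 siRNA culture and 7.06 in the control culture, 3.58-fold higher. AMBRA1, the receptor for D-type cyclins, read 12.18 in the ANO5 siRNA culture and 11.03 in the control culture, 2.22-fold higher. The remaining 21 measured receptors lay within 2-fold, from -0.99 for DCAF15, just short of the threshold, to 0.83 for DCAF8. DCAF4 at -0.02 and DCAF13 at 0.15 lay nearest to 0. DDB2, the receptor for ultraviolet damage, and CRBN, the target of thalidomide, were picked for mention after their values were seen and differed by 0.16 and 0.20.

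**Figure D3:**
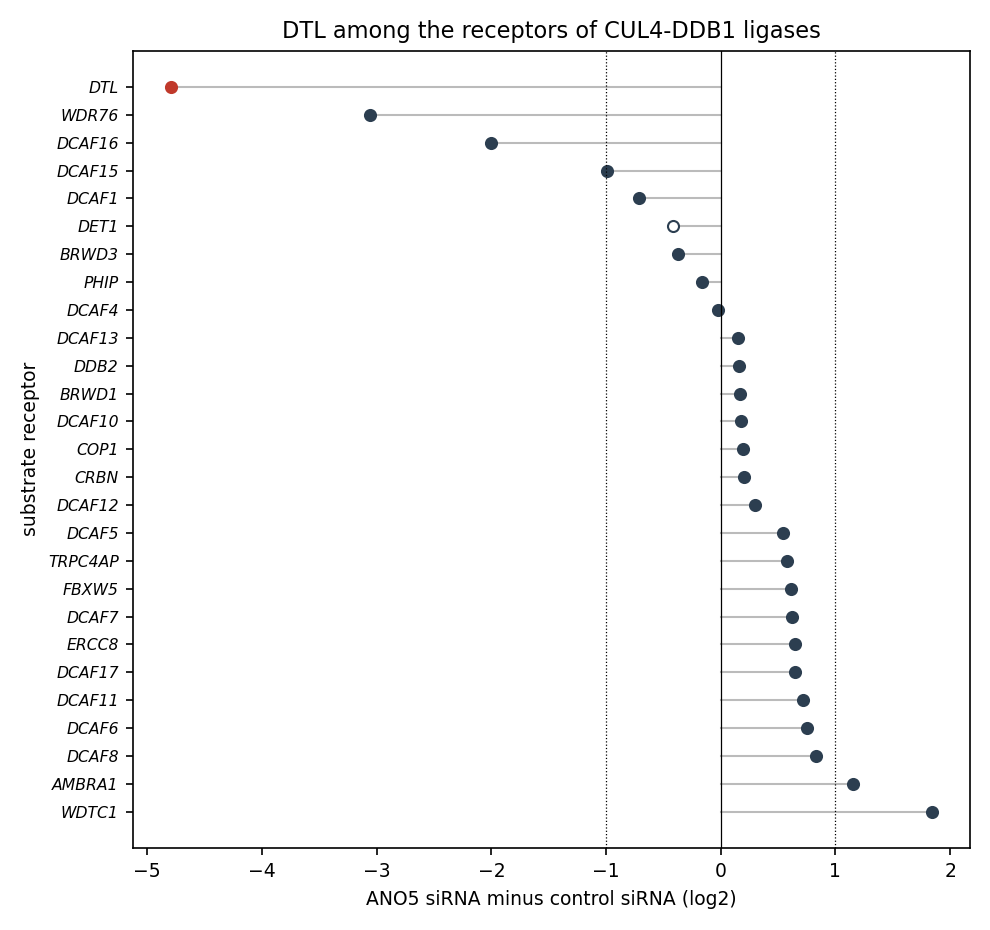
Difference ANO5 siRNA minus control siRNA (log2, horizontal axis) of the 27 receptor genes (vertical axis), DTL in red, the open circle for DET1 below the measured range, and dotted lines at 2-fold. DTL at -4.79 is followed by WDR76 at -3.06 and DCAF16 at -2. The median of the 26 measured receptors (0.20) and that of all measured genes (0.07) both lie above 0.

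Transcripts of the proteins that the DTL ligase removes went both ways. Of 7 substrate genes, 3 were lower and 1 higher by 2-fold, beside 11.3% and 11.2% of all measured genes, and the median was 0.36 although the mean was -0.33. CDT1, which loads the replicative helicase, read 6.44 in the ANO5 siRNA culture and 9.30 in the control culture, 7.26-fold lower. Whether this 6.44 lies above background was not tested, so the size of the fold is uncertain. SDE2, a protein of the replication fork, read 8.40 in the ANO5 siRNA culture and 9.59 in the control culture, 2.28-fold lower. With KMT5A, these were the 3 lower substrates.

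CDKN1A, the CDK inhibitor p21, read 13.15 in the ANO5 siRNA culture and 12.22 in the control culture, a difference of 0.93 and just short of 2-fold. POLD4, the smallest subunit of DNA polymerase delta, read 11.25 in the ANO5 siRNA culture and 10.17 in the control culture, 2.11-fold higher. TDG, a DNA glycosylase, read 10.04 in the ANO5 siRNA culture and 9.30 in the control culture, a difference of 0.74. ERCC5, the nuclease XPG of nucleotide excision repair, differed by 0.36. Substrate transcripts therefore had no common direction: CDT1, KMT5A and SDE2 read lower in the ANO5 siRNA culture, and POLD4, CDKN1A, TDG and ERCC5 read higher there. The arrays read RNA, and protein levels, on which the ligase acts, were not measured here.

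PCNA, on which the ligase finds its substrates, read 12.79 in the ANO5 siRNA culture and 13.64 in the control culture, a difference of -0.85. GMNN, the inhibitor of CDT1, read 10.02 in the ANO5 siRNA culture and 10.92 in the control culture, a difference of -0.90. Both were lower by less than 2-fold. SKP2, the receptor of another cullin ligase that also acts on CDT1 and CDKN1A, read 11.58 in the ANO5 siRNA culture and 12.98 in the control culture, 2.64-fold lower. Its partners went the other way: SKP1, the adaptor, was 2.23-fold higher and CUL1, the scaffold, differed by 0.50. The adaptor SKP1 thus read higher in the ANO5 siRNA culture, whereas DDB1, the adaptor of the DTL ligase, read slightly lower there. FBXO11, the receptor of the ligase that removes DTL protein, read 10.15 in the ANO5 siRNA culture and 9.04 in the control culture, 2.16-fold higher. In this list of 6 genes, 1 was lower and 2 were higher by 2-fold, beside 11.3% and 11.2% of all measured genes, and the median was -0.18.

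KMT5A opens a pathway of H4 lysine 20 methylation, whose later enzymes did not share its difference. KMT5B, which adds further methyl groups, read 12.80 in the ANO5 siRNA culture and 12.41 in the control culture, a difference of 0.39. KMT5C, its relative, read 8.20 in the ANO5 siRNA culture and 8.27 in the control culture, a difference of -0.07. PHF8, a demethylase of the mark that KMT5A places, differed by -0.15. Of the enzymes, KMT5A alone passed 2-fold, beside 11.3% lower and 11.2% higher of all measured genes. The enzymes are few and KMT5A was chosen with this contrast known, so nothing is read from the count.

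Among proteins that bind the methylated lysine, ORC1, a subunit of the origin recognition complex, read 8.54 in the ANO5 siRNA culture and 11.32 in the control culture, 6.87-fold lower. The condensin II subunits NCAPG2 and NCAPD3 were 6.63-fold and 2.95-fold lower. TP53BP1, a protein of double-strand break repair, differed by -0.26, and L3MBTL1 read 4.07 in the ANO5 siRNA culture and 4.51 in the control culture, below the measured range. Of the 8 measured genes of this list 4 were lower by 2-fold and 0 higher, beside 11.3% and 11.2% of all measured genes, with a median of -0.83. The list was written when cell cycle genes were already known to be lower on these arrays, and 3 of its 4 lower genes also serve replication or mitosis.

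**Figure D4:**
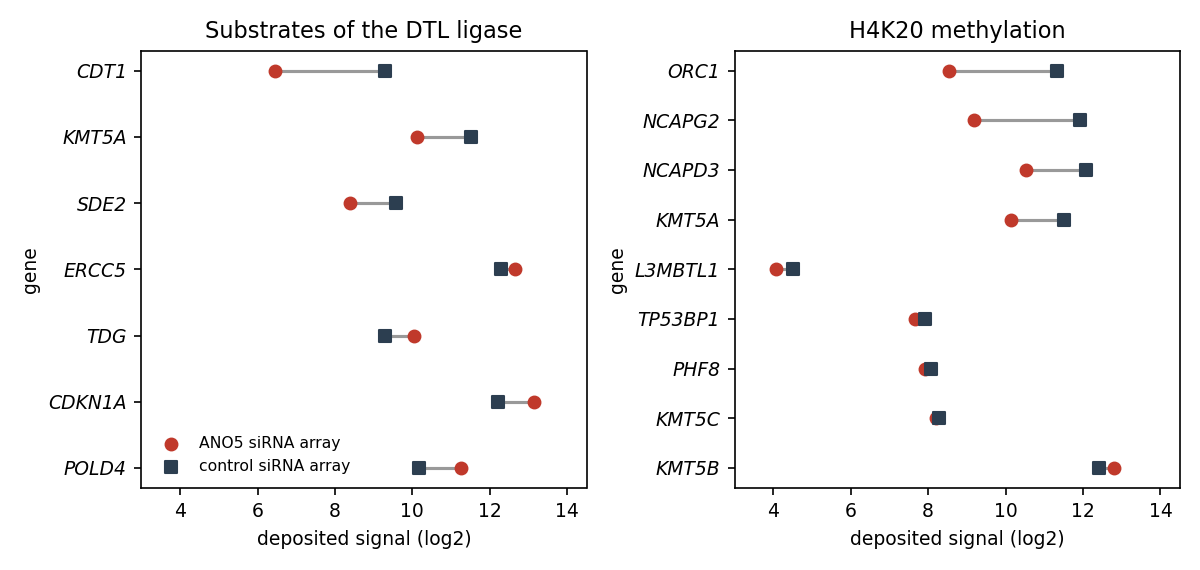
Deposited signal (log2, horizontal axis) on the ANO5 siRNA array (circles) and the control siRNA array (squares) for the 7 substrate genes (left) and the 9 genes of H4 lysine 20 methylation (right), 1 array each. CDT1, KMT5A and SDE2 have the circle left of the square and the other 4 substrates have it on the right, and ORC1, NCAPG2, NCAPD3 and KMT5A have the widest gaps in the right panel.

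Cullin ligases are switched on by attachment of NEDD8 and switched off by the COP9 signalosome, which takes it away. Of 13 genes for neddylation and the exchange factors CAND1 and CAND2, 11 could be named in the table and 10 were measured, with 1 lower, 0 higher and a median of -0.15. DCUN1D3, a co-factor of neddylation, read 8.72 in the ANO5 siRNA culture and 10.11 in the control culture, 2.62-fold lower. CAND1 and NAE1, a subunit of the NEDD8-activating enzyme, lay nearest to 0 at -0.06 and -0.23. All 10 signalosome genes were measured, with 1 lower, 0 higher and a median of -0.19. COPS7A was 2.53-fold lower, and COPS7B (-0.97), COPS8 (-0.76) and COPS3 (-0.62) were lower by less. GPS1 (-0.20), COPS4 (-0.17), COPS6 (0.12) and COPS5, the catalytic subunit (0.15), lay near 0, and COPS9 and COPS2 differed by 0.51 and 0.54. Shares of lower genes of 10% in both lists were close to the 11.3% of all measured genes, and the 0 higher stand beside 11.2%.

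Of the ubiquitin-conjugating enzymes that serve cullin ligases, 5 of 8 could be named in the table. UBE2G1, which acts with CUL4 ligases, read 13.88 in the ANO5 siRNA culture and 12.81 in the control culture, 2.10-fold higher. UBE2D4 read 11.24 in the ANO5 siRNA culture and 9.62 in the control culture, 3.07-fold higher. UBE2R2, UBE2G2 and CDC34 differed by 0.18, -0.01 and -0.56, and the median of the 5 was 0.18.

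Of the other cullins, CUL1, CUL2, CUL3, CUL5 and CUL7 read higher in the ANO5 siRNA culture by less than 2-fold, and CUL9 read lower there. CUL5 read 12.41 in the ANO5 siRNA culture and 11.49 in the control culture, a difference of 0.92. CUL7 differed by 0.90, CUL3 by 0.39 and CUL2 by 0.30, while RNF7, the RING partner of CUL5, differed by -0.07. CUL9 read 4.79 in the ANO5 siRNA culture and 5.62 in the control culture, below the measured range. None of the 6 measured genes of this list passed 2-fold, beside 11.3% lower and 11.2% higher of all measured genes. With so few genes nothing is read from this count. Their median was 0.45 beside 0.07 over all measured genes.

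Origin licensing, the step that DTL guards through CDT1, had the lowest median of the 10 lists. Of its 15 genes, all measured, 9 were lower by 2-fold (60%) and 0 higher, beside 11.3% and 11.2% of all measured genes, with a median of -1.31. The lowest were CDT1 at -2.86, ORC1 at -2.78 and the helicase subunits MCM7 at -2.68 and MCM5 at -2.63. ORC4 at 0.35 and ORC5 at -0.57 lay nearest to 0. DTL at -4.79 lay below each of the 15. This list too was chosen when cell cycle genes were already known to be lower on these arrays. Nothing is therefore read from its rank or its count. The lists share genes, since CDT1, ORC1 and GMNN each stand in 2 of them, as do KMT5A and CUL1.

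**Figure D5:**
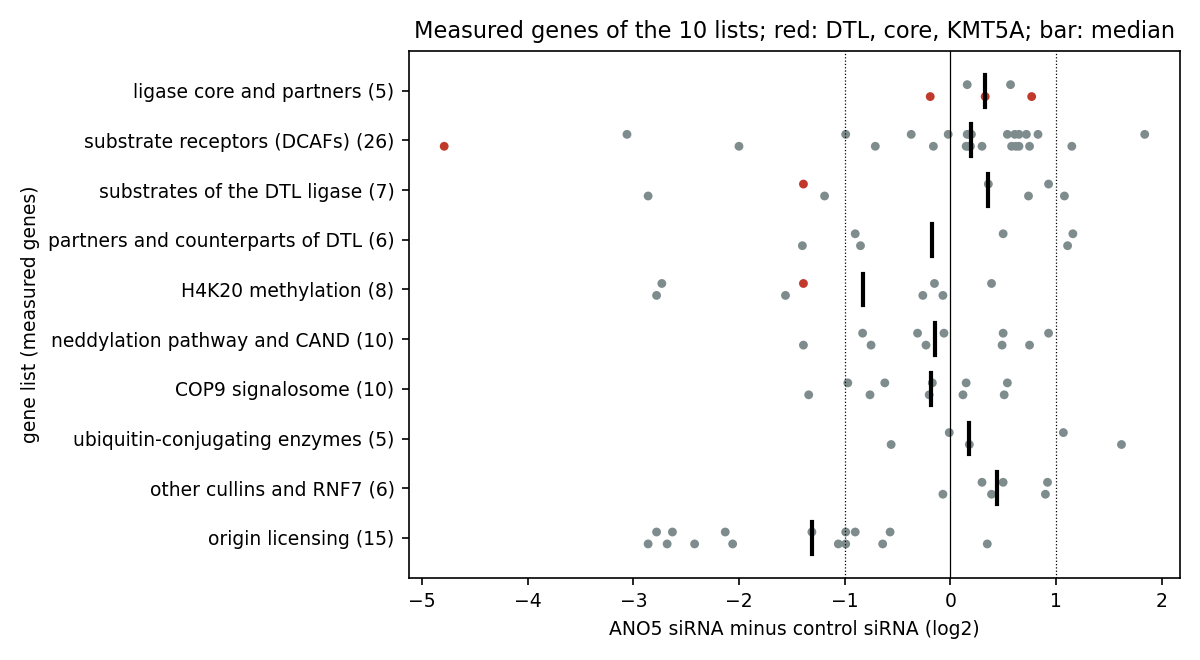
Difference ANO5 siRNA minus control siRNA (log2, horizontal axis) of the measured genes in each of 10 lists (vertical axis, number of measured genes in brackets), with DTL, DDB1, CUL4A, CUL4B and KMT5A in red, a black bar at the list median and dotted lines at 2-fold. The medians of origin licensing (-1.31) and H4 lysine 20 methylation (-0.83) are the lowest, and those of the other 8 lists lie between -0.19 and 0.45.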

How the data were processed

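Biotin-labelled total RNA of 2 NUGC4 cultures was read on 1 array each, per the labels. The authors made the log2 values by steps for which the sources used here give no background correction, normalization, log base or build, and deposited 1 value per array for 17345 clusters. The log2 scale was read from the values, which run from 2.13 to 18.15. Agilent Feature Extraction 12.0.3.1 stands in the submitters' processing notes, although the cluster identifiers are not that maker's. Array medians were 7.68 (ANO5 siRNA) and 7.69 (control siRNA), so values were used as deposited, with no detection calls. The number of arrays limits the precision.

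Platform annotation named 14544 clusters and 14526 genes, and 16 genes had several clusters, of which the one with the highest mean was used. Genes past 2-fold (log2 difference of 1) in the measured range were counted with no test. The members and the 10 lists were chosen with earlier results of these data known. Named genes were the 5 members, ANO5, all genes of lists of up to 10 and, from longer lists, up to 4 each way past 2-fold and the 2 nearest to 0, with the 5 genes nearest to DTL and to KMT5A. CDK2, the bounds of ranges and the markers set beside DTL were named after their values were seen. The scaling steps were checked on simulated data with far fewer changed genes and less spread than these arrays. All changes planted there were in genes well above the low end of the measured range. The check thus does not show how the steps behave on these arrays. Alternatives were 4 scalings, a pseudocount, filters, thresholds, the median over clusters and the list mean. Python 3.11.15, numpy 2.4.6, pandas 2.3.3, statsmodels 0.14.6 and matplotlib 3.10.9 were used.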

Additional observations from a re-analysis of the deposited data

How the results depend on the processing

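Under median centring, 75th percentile centring, quantile normalization, loess (span 0.4), a pseudocount of 16 on the linear signal and the median over clusters, DTL ranged from -4.89 to -4.67, KMT5A from -1.52 to -1.38, DDB1 from -0.30 to -0.18, CUL4A from 0.64 to 0.78 and CUL4B from 0.20 to 0.34. The gap of DTL to the core median ranged from -5.12 to -5.00 and that to KMT5A from -3.40 to -3.29. The median over clusters could not move these 5 genes, which have 1 cluster each, and centring could move no gap. A pseudocount of 16 is small beside the signals of these genes and could move them little. No setting estimated background, so the narrow range of DTL does not show whether its 7.47 in the ANO5 siRNA culture lies above it. The 8 values that moved were due to the setting's own construction. Genes past the threshold numbered 2257 higher and 1961 lower at 1.5-fold and 343 and 522 at 3-fold. By the mean instead of the median, the receptors were at -0.070, the substrates at -0.33 and the H4 lysine 20 list at -1.07, and the last was at -1.39 when genes under the 50th percentile of mean level were left out, so that fewer remained, and at -0.44 with no filter, which adds L3MBTL1. The other 144 values of members, gaps, gene counts and list medians kept their direction and their side of 2-fold or, for counts, stayed within 1.5 times. Of 140 counts within lists 14 moved, 9 of them by the 1.5-fold threshold. Loess moved the count of higher substrates to 0, as POLD4 lies next to 2-fold. The measured genes' median was -0.01 to 0.08 under the scalings. No paired analysis was possible because each group has 1 array. Replicates could not be left out for the same reason.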
